A study of Mus musculus with 10 samples.

Results

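The genes described here encode the mitochondrial calcium uniporter complex (Mcu, Micu2 and Smdt1), 2 ion exchangers of the inner membrane (Letm1 and Slc8b1) and the voltage-dependent anion channels of the outer membrane (Vdac1, Vdac2 and Vdac3). They were chosen by name, as the probe sets whose annotation holds 1 of these 8 symbols and no other. The 8 genes were read by 11 probe sets, out of 19938 genes with a probe set of their own, and all 8 were among the 13953 genes bright enough to be tested.

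Affymetrix mouse gene arrays were run on RNA from both ventricles of 10 mice, 1 array per mouse. Tamoxifen-labelled mice, titled PGC-1a-/-bf/f/MerCre, are labelled as lacking both PGC-1α (gene Ppargc1a) and PGC-1β (gene Ppargc1b); there were 5 of them. The 5 vehicle-labelled mice, titled PGC-1a-/-, are labelled as lacking PGC-1α with PGC-1β expression intact. The source names give both groups the floxed PGC-1β alleles and MerCre, which recombines floxed DNA once tamoxifen is bound, while the titles of the vehicle-labelled arrays name neither. Loss of PGC-1α is thus shared by all 10 animals, and no animal with intact PGC-1α was measured. At 2 months of age the mice received tamoxifen at 50 mg/kg per day in sunflower seed oil, or the oil alone, on 2 days. Ventricles were collected 1 month later, at 3 months. No group received tamoxifen without carrying the floxed alleles, so exposure to tamoxifen and loss of PGC-1β cannot be told apart, and the sources used here do not name the promoter that drives MerCre. Each change below is the tamoxifen-labelled mean minus the vehicle-labelled mean of log2 signals, with its SE after ±, and a gene is called where limma's adjusted p over all 13953 genes was below 0.05.

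Calcium crosses the mitochondrial outer membrane mainly through the VDACs, abundant pores that also pass ATP, ADP and other metabolites. MCU forms the pore of the inner membrane, MICU proteins gate it by sensing calcium, and EMRE (gene Smdt1) ties the gate to the pore. NCLX (gene Slc8b1) returns calcium to the cytosol in exchange for sodium, and LETM1 is an inner-membrane protein described as a potassium/proton or a calcium/proton exchanger. In heart muscle, matrix calcium is known for stimulating dehydrogenases that supply the respiratory chain with NADH.

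The targeted gene went against the labels. Ppargc1b read 9.93, 10.15, 10.11, 9.93 and 10.03 (log2) in the 5 tamoxifen-labelled arrays, against 9.76, 9.69, 9.82, 9.65 and 9.90 in the vehicle-labelled arrays, a rise of 0.27 ± 0.061 (limma adjusted p = 0.00528). Whether this probe set reads the deleted exons is not known from the files; if it reads others, it is no check of the deletion. All directions below rest on the labels. Ppargc1a, labelled as lost in both groups, gave a signal of 11.20 ± 0.23 in tamoxifen-labelled and 10.81 ± 0.14 in vehicle-labelled arrays (SD, n = 5 each; limma adjusted p = 0.00813). Pprc1, also of the PGC-1 family, was called higher by 0.19 ± 0.067 (limma adjusted p = 0.0478). That call held in only 9 of 19 alternatives (limma adjusted p from 0.00588 to 0.109). Tamoxifen-labelled array 2 had the highest median signal, 7.31 against at most 7.24 in the other 9 arrays. It was the highest or tied highest tamoxifen-labelled array for 7 of the 8 genes, and for 70.7% of all tested genes. Cardiomyocyte markers were bright, with 0 of 10 higher and 1 lower, beside 13.6% higher and 8.28% lower among all tested genes. The summed linear signal of these markers ran from 160087 to 163358 in the tamoxifen-labelled arrays and from 157339 to 159196 in the vehicle-labelled ones.

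Letm1 and all 3 VDAC genes fell in the tamoxifen-labelled ventricles, by 12.3% to 25.2% of the linear signal, whereas no gene of the uniporter complex was called in either direction. Slc8b1, the sodium/calcium exchanger gene, was not called either. Thus 4 of the 8 genes were lower and 0 higher, beside 8.28% lower, 13.6% higher and 21.9% in either direction among all tested genes. The 4 called genes also had all 5 tamoxifen-labelled values below all 5 vehicle-labelled values, a separation that 6.12% of all tested genes showed in that direction. The median change was -0.11 over the 8 genes and 0.014 over all tested genes.

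**Figure D1:**
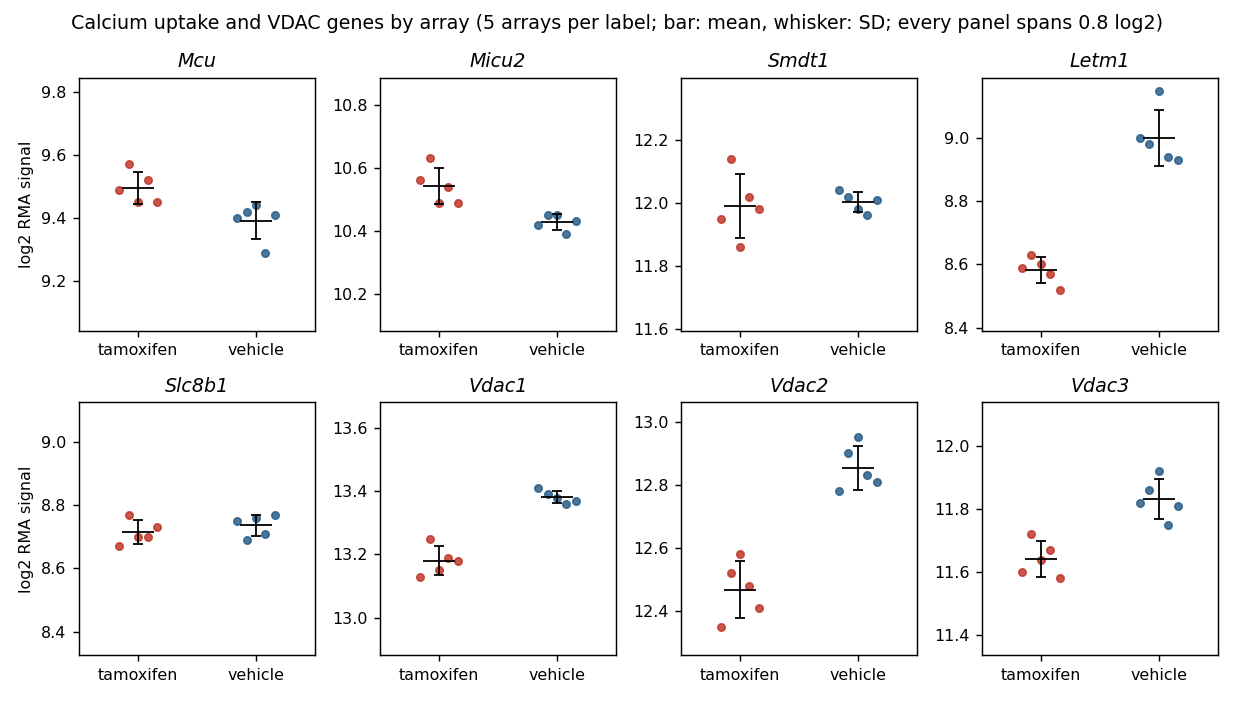
Log2 RMA signal (vertical axis) of each of the 8 genes in the 5 tamoxifen-labelled arrays (red, left) and the 5 vehicle-labelled arrays (blue, right), with the mean as a bar and the SD as a whisker. Letm1, Vdac1, Vdac2 and Vdac3 show separate groups with the tamoxifen-labelled arrays lower, Mcu and Micu2 show a narrow separation the other way, and Smdt1 and Slc8b1 overlap.

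**Figure D2:**
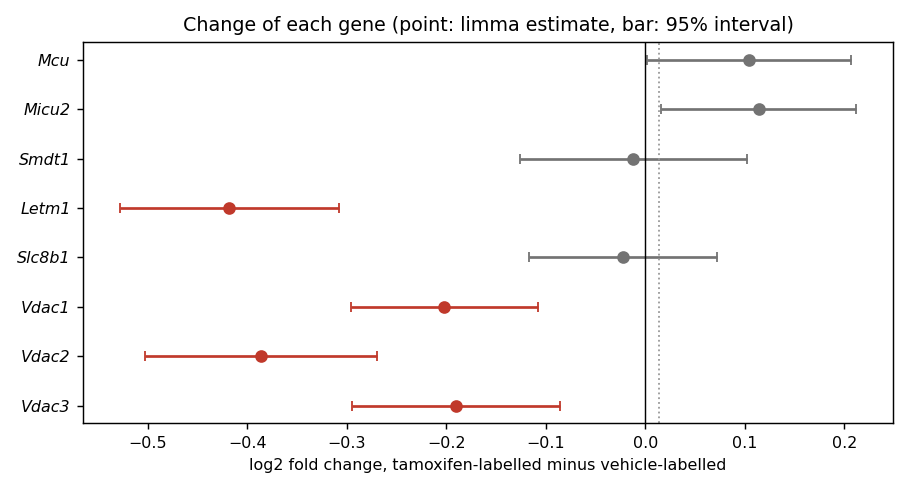
Log2 fold change of each gene (horizontal axis, tamoxifen-labelled minus vehicle-labelled) with its 95% interval; red points were called and grey points were not, the solid line marks 0 and the dotted line the median of all tested genes, 0.014. Intervals of Letm1 (-0.53 to -0.31) and Vdac2 (-0.50 to -0.27) lie farthest below 0.

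In the uniporter complex, the pore gene Mcu read 9.49, 9.57, 9.45, 9.52 and 9.45 in the tamoxifen-labelled arrays 1 to 5, against 9.40, 9.42, 9.44, 9.29 and 9.41 in the vehicle-labelled arrays 1 to 5. The groups did not overlap, but the lowest tamoxifen-labelled value lay only just above the highest vehicle-labelled one, 9.45 against 9.44. The difference of 0.10 ± 0.048 did not pass (limma adjusted p = 0.141), with a 95% interval of 0.0015 to 0.21. Among all tested genes, 10.5% had every tamoxifen-labelled value above every vehicle-labelled one.

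Micu2, a calcium-sensing gatekeeper, gave a similar picture. Its values were 10.56, 10.63, 10.49, 10.54 and 10.49 in the tamoxifen-labelled arrays and 10.42, 10.45, 10.45, 10.39 and 10.43 in the vehicle-labelled ones. The difference was 0.11 ± 0.046 (limma adjusted p = 0.0911), again with no overlap. It passed in 1 of the alternatives, with each array centred on its median (0.12, limma adjusted p = 0.0334; range 0.0334 to 0.166 over all alternatives).

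Smdt1, the gene of the small linker protein EMRE, had overlapping groups. It read 11.95, 12.14, 11.86, 12.02 and 11.98 in the tamoxifen-labelled arrays, against 12.04, 12.02, 11.98, 11.96 and 12.01 in the vehicle-labelled arrays. The tamoxifen-labelled arrays spread more widely, from array 3 at 11.86 to array 2 at 12.14, with an SD of 0.10 against 0.032 in the vehicle-labelled arrays. The difference was -0.012 ± 0.054 (limma adjusted p = 0.906). The 95% interval runs from -8.36% to 7.32% on the linear scale, so changes within those bounds were not resolved with 5 arrays per group.

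The difference between Smdt1 and Mcu shifted, although neither gene was called alone. The log2 difference Smdt1 minus Mcu, taken within each array, ran from 2.41 to 2.57 in the tamoxifen-labelled arrays and from 2.54 to 2.67 in the vehicle-labelled arrays, a shift of -0.12 ± 0.035 (exact two-sided permutation p = 0.0159, adjusted p = 0.0238 over 6 pairs). Micu2 minus Mcu shifted by 0.010 ± 0.018 (exact permutation p = 0.698, adjusted p = 0.738), so no unequal change of gatekeeper and pore was resolved. A difference of this kind compares changes, not amounts, because levels of different probe sets cannot be set against each other.

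Of the exchangers, Letm1 had the deepest fall of the 8 genes. Its values were 8.59, 8.63, 8.60, 8.57 and 8.52 in the tamoxifen-labelled arrays, against 9.00, 8.98, 9.15, 8.94 and 8.93 in the vehicle-labelled ones. The highest tamoxifen-labelled value, 8.63, lay below the lowest vehicle-labelled value, 8.93. Letm1 fell by 0.42 ± 0.052, which is 25.2% of the linear signal (limma adjusted p = 2.09e-05), and 304 of the 13953 tested genes had a more negative change.

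Slc8b1 was not called. It read 8.67, 8.77, 8.70, 8.70 and 8.73 in the tamoxifen-labelled arrays and 8.75, 8.69, 8.76, 8.71 and 8.77 in the vehicle-labelled ones, with overlapping groups. The difference was -0.022 ± 0.045 (limma adjusted p = 0.777), with a 95% interval from -7.76% to 5.16% on the linear scale. The difference between the exchangers was tested directly. Letm1 minus Slc8b1 ran from -0.21 to -0.08 in the tamoxifen-labelled arrays and from 0.16 to 0.39 in the vehicle-labelled arrays, a shift of -0.40 ± 0.044 (exact permutation p = 0.00794, adjusted p = 0.0238). No regrouping of 10 arrays into equal groups can give a smaller p.

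The promoter of Letm1 is shown because this gene changed most. It covers chr5:33782668-33782967 (GRCm38.p6, minus strand, RefSeq), from 250 bases before to 50 bases after the annotated start, with motif matches in capitals.
Letm1: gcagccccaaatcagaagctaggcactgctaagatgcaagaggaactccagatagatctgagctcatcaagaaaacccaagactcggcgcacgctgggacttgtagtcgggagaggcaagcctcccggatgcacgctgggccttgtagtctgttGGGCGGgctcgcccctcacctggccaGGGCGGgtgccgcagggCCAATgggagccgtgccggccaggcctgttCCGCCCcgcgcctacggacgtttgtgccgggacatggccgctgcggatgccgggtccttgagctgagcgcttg
The capitals mark GGGCGG, the SP motif, beginning at -96 and -70 and, on the other strand as CCGCCC, at -23, and CCAAT, the NF-Y motif, at -53, counted from the start site. SP matches were present in 35.7% of the 32851 promoter windows and in 65.4% of the tested genes with a window, and CCAAT in 37.4% and 41.5%. No match to the ERR motif TNAAGGTCA or the NRF1 motif GCGCANGCG was found on either strand, motifs held by 0.967% and 13.5% of the tested genes with a window.

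The outer-membrane channel genes fell together but not equally. Vdac1, the isoform often named as the main one in heart, read 13.13, 13.25, 13.15, 13.19 and 13.18 in the tamoxifen-labelled arrays, against 13.41, 13.39, 13.38, 13.36 and 13.37 in the vehicle-labelled arrays. The vehicle-labelled arrays lay close together (SD 0.019) and above every tamoxifen-labelled array. Vdac1 fell by 0.20 ± 0.044, or 13.1% of the linear signal (limma adjusted p = 0.00378).

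Vdac2, whose protein is known for binding the cell death proteins BAK and BAX, fell most among the channel genes. Its brighter probe set read 12.35, 12.52, 12.58, 12.48 and 12.41 in the tamoxifen-labelled arrays and 12.78, 12.90, 12.95, 12.83 and 12.81 in the vehicle-labelled ones. No values overlapped, and the fall was 0.39 ± 0.055, or 23.5% (limma adjusted p = 9.05e-05). The dimmer probe set read 12.09, 12.18, 12.24, 12.16 and 12.05 in the tamoxifen-labelled arrays and 12.51, 12.62, 12.62, 12.53 and 12.55 in the vehicle-labelled ones, a fall of 0.42.

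Vdac3 read 11.60, 11.72, 11.64, 11.67 and 11.58 in the tamoxifen-labelled arrays, against 11.82, 11.86, 11.92, 11.75 and 11.81 in the vehicle-labelled arrays. Here the gap between the groups was the narrowest of the called genes, between 11.72 in tamoxifen-labelled array 2 and 11.75 in vehicle-labelled array 4. The fall was 0.19 ± 0.049, or 12.3% (limma adjusted p = 0.0113). The other 2 Vdac3 probe sets, 10407921 and 10407926, had the same value as each other in all 10 arrays, so they count as 1 measurement, with a fall of 0.19. The RefSeq table lists a pseudogene, Vdac3-ps1, and near-identical copies of a VDAC gene could share signal with these probe sets.

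**Figure D3:**
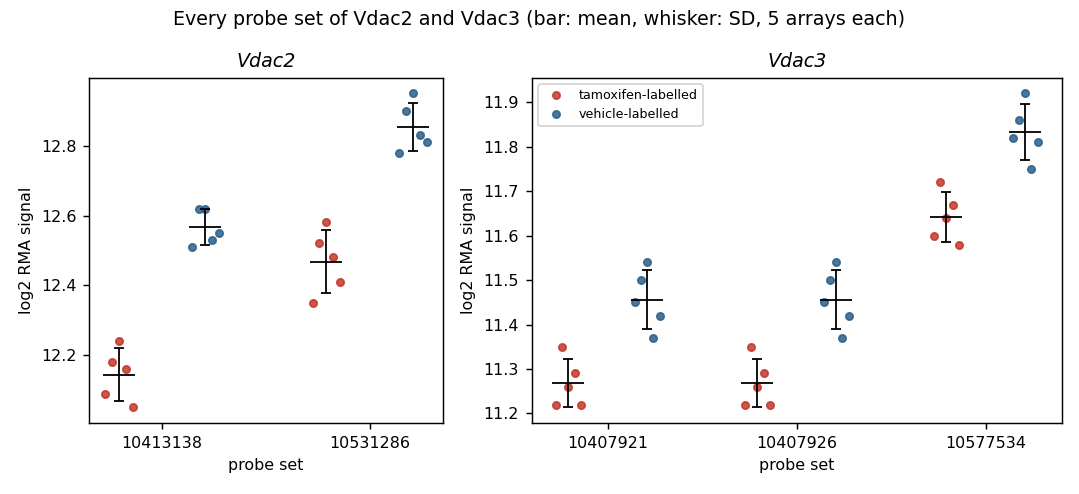
Log2 RMA signal (vertical axis) of every probe set of Vdac2 and Vdac3 (horizontal axis, probe set identifiers), tamoxifen-labelled arrays in red to the left of vehicle-labelled arrays in blue, with means and SDs. All 5 probe sets are lower in the tamoxifen-labelled arrays, and the first and second of Vdac3 are identical.

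The measured fall of Vdac2 was deeper than that of the other channel genes. Vdac2 had log2 means of 12.47 in the tamoxifen-labelled and 12.85 in the vehicle-labelled arrays. Vdac1 was brighter (13.18 and 13.38) and Vdac3 dimmer (11.64 and 11.83). RMA compresses changes of very bright genes, and its effect on these pairs was not tested. Vdac2 minus Vdac1 ran from -0.78 to -0.57 in the tamoxifen-labelled arrays and from -0.63 to -0.43 in the vehicle-labelled arrays, a shift of -0.18 ± 0.050 (exact permutation p = 0.0159, adjusted p = 0.0238 over 6 pairs). Vdac3 minus Vdac2 ran from -0.94 to -0.75 in the tamoxifen-labelled arrays and from -1.08 to -0.96 in the vehicle-labelled arrays, a shift of 0.20 ± 0.037 (exact permutation p = 0.00794, adjusted p = 0.0238). Vdac3 minus Vdac1 shifted by 0.012 ± 0.031 (exact permutation p = 0.738), so no difference between the falls of these channel genes was resolved.

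**Figure D4:**
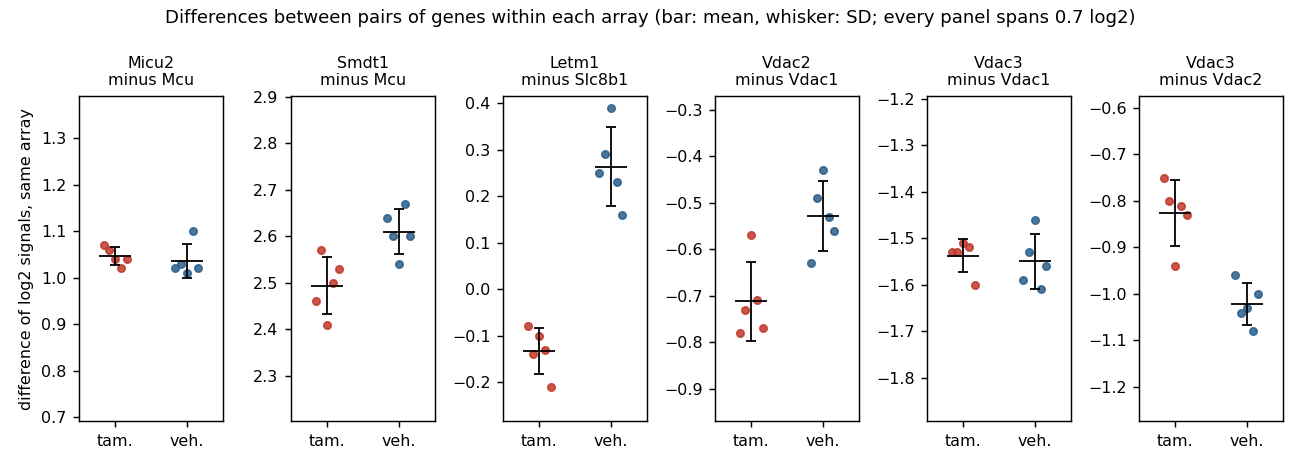
Difference of log2 signals of a pair of genes within the same array (vertical axis), tamoxifen-labelled arrays in red on the left and vehicle-labelled arrays in blue on the right, with means and SDs. Letm1 minus Slc8b1 and Vdac3 minus Vdac2 separate without overlap, and Micu2 minus Mcu and Vdac3 minus Vdac1 do not shift visibly.

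Promoter windows were matched for 5 of the 8 genes, and none was matched for Slc8b1, Vdac2 and Vdac3. The window at the upstream start of Vdac1, which fell, and that of Micu2, which was not called, were picked because their matches differ. They cover chr11:52360601-52360900 (plus strand) and chr14:57999213-57999512 (minus strand) in GRCm38.p6, from RefSeq.
Vdac1: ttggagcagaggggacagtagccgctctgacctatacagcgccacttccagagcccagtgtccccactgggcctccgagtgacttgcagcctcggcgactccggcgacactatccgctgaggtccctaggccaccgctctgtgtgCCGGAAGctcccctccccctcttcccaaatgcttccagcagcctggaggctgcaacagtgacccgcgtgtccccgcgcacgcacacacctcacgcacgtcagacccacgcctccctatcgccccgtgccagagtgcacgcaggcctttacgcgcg
Micu2: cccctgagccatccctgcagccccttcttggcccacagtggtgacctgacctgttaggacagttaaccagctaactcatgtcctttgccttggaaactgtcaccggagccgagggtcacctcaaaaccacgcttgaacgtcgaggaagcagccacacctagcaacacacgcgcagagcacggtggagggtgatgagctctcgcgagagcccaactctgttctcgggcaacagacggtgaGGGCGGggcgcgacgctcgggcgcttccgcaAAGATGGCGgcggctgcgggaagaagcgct
In Vdac1 the capitals mark CCGGAAG, the ETS motif bound by GABP, at -105, a motif held by 17.6% of the tested genes with a window. A second annotated start of Vdac1 held 3 GGGCGG matches, a motif that Micu2 also held. Whether motif matches go with the calls was not tested. In Micu2 the capitals mark GGGCGG at -11 and AAGATGGCG, the YY1 motif, at 21, which 3.02% of the tested genes with a window held. The window of Mcu held 2 CCAAT matches, and that of Smdt1 held 4 GGGCGG matches, 1 match to TGACGTCA, the CRE motif, and 1 to the NRF1 motif. All 7 motifs were searched on both strands, no 2 matches in these windows overlapped, and none of the 6 windows held the ERR motif.

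Across the 10 arrays, the genes with the patterns most like each called gene were found by the root mean square difference of log2 values after each gene's mean was taken off. For Letm1 these were Timmdc1 (0.0407), Cisd1 (0.0434) and Mrpl35 (0.0436), and for Vdac2 they were Mrpl51 (0.0415), Cs (0.0434) and Micos13 (0.0517). For Vdac1 they were Atp5j (0.0179), Atp5g2 (0.0223) and Fech (0.0255), and for Vdac3 they were Mtch2 (0.0268), Churc1 (0.0326) and Prkag1 (0.0356). Among the 8 genes themselves, Mcu and Micu2 were the closest pair (0.027), then Vdac1 and Vdac3 (0.044), then Smdt1 and Slc8b1 (0.057), then Letm1 and Vdac2 (0.065). Each mean was taken over all 10 arrays, so the distances still hold the difference between the groups. Genes with similar changes therefore lie close, such as Letm1 (-0.42) and Timmdc1 (-0.41). The distances are descriptions and were not tested.

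Other genes of mitochondrial calcium and cation transport went mostly the same way as Letm1. Of 20 listed genes 17 were tested, of which 9 fell and 1 rose, with a median change of -0.19. The shares over all tested genes, for this list and those below, were 8.28% lower and 13.6% higher. Ghitm, an inner-membrane protein gene of the TMBIM family, fell by 0.53 ± 0.048 (limma adjusted p = 6.74e-07), and Slc25a12, the calcium-regulated aspartate/glutamate carrier, fell by 0.50 ± 0.049. Ppif, which encodes cyclophilin D, a regulator of the permeability transition pore, fell to 12.19 ± 0.10 in the tamoxifen-labelled arrays, against 12.64 ± 0.036 in the vehicle-labelled arrays (SD, n = 5 each; change -0.45 ± 0.054, limma adjusted p = 1.37e-05).

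Genes that act on the uniporter complex itself were among those that fell. Mcur1, a uniporter regulator, fell by 0.30 ± 0.061 (limma adjusted p = 0.00222), and Maip1, an m-AAA protease partner needed for EMRE assembly, fell by 0.25 ± 0.052. Afg3l2 and Spg7, the m-AAA protease subunits known for removing unassembled EMRE, fell by 0.37 ± 0.048 and 0.23 ± 0.055. Micu3, a tissue-restricted relative of Micu2, read 7.36 ± 0.16 in the tamoxifen-labelled arrays and 7.23 ± 0.12 in the vehicle-labelled ones (SD, n = 5 each) and was not called (limma adjusted p = 0.262). The rise was that of Slc25a25, an ATP-magnesium/phosphate carrier, by 0.31 ± 0.063 (limma adjusted p = 0.00184). Maip1, Spg7 and Slc25a25 were picked out after their values were seen.

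Genes of most other listed outer-membrane proteins also fell. Of 15 tested genes 11 fell and 1 rose, with a median change of -0.29. Samm50, of the beta-barrel insertion machinery, fell by 0.73 ± 0.046, the signalling adaptor gene Mavs by 0.52 ± 0.050, the import pore gene Tomm40 by 0.57 ± 0.063 and Mtx2 by 0.49 ± 0.057. The rise, picked out after its value was seen, was that of Cyb5b (0.21 ± 0.055).

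Of 17 tested genes of VDAC partners and contacts with the endoplasmic reticulum, 4 fell and 1 rose, with a median change of 0.0060. Among all tested genes 8.28% were lower and 13.6% higher. Hspa9, the chaperone that links VDAC1 to the inositol trisphosphate receptor, fell by 0.64 ± 0.053, the adenine nucleotide carrier gene Slc25a5 by 0.39 ± 0.058 and the mitochondrial creatine kinase gene Ckmt2 by 0.35 ± 0.051. Its sister carrier gene Slc25a4 read 14.03 ± 0.019 in the tamoxifen-labelled arrays and 14.03 ± 0.018 in the vehicle-labelled arrays (SD, n = 5 each) and was not called. Hexokinase 1 gene Hk1, whose protein docks on VDAC1, was called higher by its brighter probe set (0.21 ± 0.047, limma adjusted p = 0.00434), but its dimmer probe set changed by -0.26, and their mean changed by -0.027 (limma adjusted p = 0.731).

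Genes of the matrix enzymes that calcium stimulates fell throughout, as RNA signal, and protein was not measured. All 8 tested genes of the calcium-stimulated dehydrogenases and of pyruvate dehydrogenase phosphatase were lower, with a median change of -0.61. Dlst fell by 1.08 ± 0.058, Idh3b by 0.95 ± 0.054, Dld by 0.93 ± 0.056 and Idh3g by 0.60 ± 0.048. The call of the phosphatase gene Pdp1 (-0.25 ± 0.074, limma adjusted p = 0.0247) was lost without vehicle-labelled array 1 (adjusted p = 0.0667) or 3 (0.0548), without tamoxifen-labelled array 5 (0.0514) and without the filter on dim genes (0.0586). The range over all alternatives was 0.0107 to 0.0667.

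Of 13 tested calcium cycling genes of the sarcoplasmic reticulum and sarcolemma, 3 were higher and 2 lower, with a median change of 0.044, beside 13.6% higher and 8.28% lower among all tested genes. This count depended on single arrays. Camk2d, a calcium-dependent kinase gene, rose by 0.27 ± 0.050, and Trdn and Jph2, which encode proteins of the junction between sarcoplasmic reticulum and T-tubules, rose by 0.24 ± 0.061 and 0.16 ± 0.050. The calcium release channel gene Ryr2 fell by 0.16 ± 0.049 and the calcium-binding protein gene Hrc by 0.13 ± 0.045. These 5 genes, and Pdp1 and Slc25a4 above, were picked out after their values were seen. The count of 5 called calcium cycling genes was 2 without vehicle-labelled array 1, 3 or 5, and 3 without tamoxifen-labelled array 1 or 5. Nuclear genes of respiratory chain and ATP synthase subunits with their isoforms, picked by symbol, had 75 of 80 lower and a median change of -0.68. The deepest fall among the 8 calcium and VDAC genes, 0.42, was shallower than that median.

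**Figure D5:**
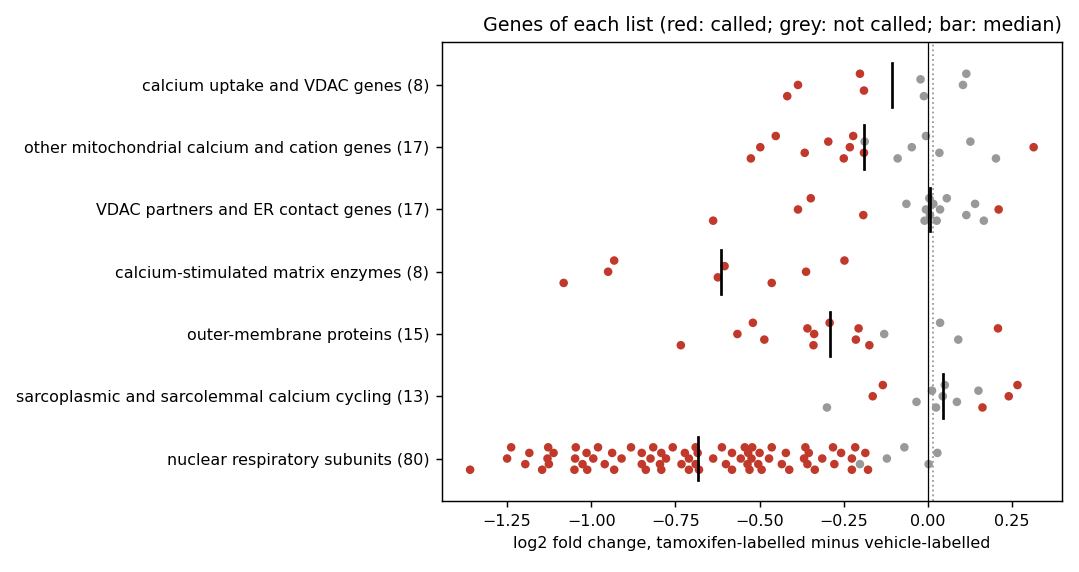
Log2 fold change (horizontal axis, tamoxifen-labelled minus vehicle-labelled) of every tested gene in 7 lists (vertical axis, number tested in brackets), with called genes in red, genes not called in grey, list medians as black bars and the median of all tested genes as a dotted line. Medians run from -0.68 for the respiratory subunits, ATP synthase included, to 0.044 for sarcoplasmic and sarcolemmal calcium cycling. The 8 calcium uptake and VDAC genes are at -0.11.

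Some markers listed for other cell types moved in the same arrays. Of 13 tested macrophage markers 8 rose and 0 fell, and their summed linear signal ran from 7670 to 9271 in the tamoxifen-labelled arrays and from 6546 to 7505 in the vehicle-labelled arrays. Of 12 fibroblast markers 9 rose and 0 fell, with sums from 24983 to 27870 in the tamoxifen-labelled arrays and from 22191 to 23226 in the vehicle-labelled arrays. Of 6 tested skeletal muscle markers 3 rose (Ckm, Myl1 and Tnni2), while Myh2, Actn3 and Tnnt3 were not called. The sums of the 6 ran from 14834 to 15992 in the tamoxifen-labelled arrays and from 12555 to 13197 in the vehicle-labelled arrays. Ckm was the brightest, at 13.58 and 13.38 (log2 means), with Myl1 next at 11.27 and 10.68. The sums therefore mostly follow Ckm and are no measure of skeletal muscle cells. Endothelial (1 of 10 higher), smooth muscle (2 of 9) and lymphocyte markers (1 of 4) had overlapping sums and no gene lower. For all marker counts, the shares over all tested genes were 13.6% higher and 8.28% lower. The rise among lymphocyte markers was that of Ptprc (0.31 ± 0.068), while Cd3e, Cd8a and Cd79b were not called. No marker was at 0 on this scale. Too dim to be tested were the macrophage marker Ccr2 and the lymphocyte markers Cd3d, Cd3g, Cd4, Cd79a, Ms4a1 and Nkg7. The skeletal muscle markers Myh1, Myh4 and Pvalb were also too dim. The part of other cell types in the falls of Letm1 and the VDAC genes was not tested. In whole ventricle, fewer cells of a type and less RNA per cell cannot be told apart.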

How the data were processed

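Signals came from the ventricles of 10 mice, 1 array each. The deposited log2 signals, 1 per probe set, come from 450 ng of RNA per the labels' protocols. The submitters' processing notes list RMA and Affymetrix Expression Console 1.1 as the authors' tools. RMA corrects background, normalizes across arrays and summarises probes, and compresses changes of dim or very bright genes. Of 35556 probe sets, 21789 had 1 symbol in the platform annotation. Each gene was read by its brightest single-symbol probe set, and the dimmest 30% of genes (log2 mean up to 6.53) were left out. Groups follow the titles. limma 3.58.1 in R 4.3.3, with group as the sole term and moderated two-sided tests (eBayes), was fitted over all 13953 genes with Benjamini-Hochberg adjustment, threshold 0.05, and tested on simulated data. Pairs of genes were compared by exact permutation over the 252 regroupings of arrays, and 2 planned pairs were not analysed here. Lists are described by counts and medians. Named genes are the 8 genes, the PGC-1 family, up to 4 called genes (smallest p first) of each of 4 lists, Micu3, Mcur1 and Ppif, and the 3 nearest patterns. Genes and lists were chosen with earlier results of these data known. No source says that arrays within a group came from separate litters, so p-values measure spread between these mice. Promoters were matched by symbol. The NRF1 motif was shortened by 1 base after a longer form had matched none of the 6 windows. Alternatives covered filter, normalization, model, probe set choice, replicate block and each array left out. The same alternatives for named genes beyond the 8 were chosen after seeing the data. Figures used matplotlib 3.10.9 in Python 3.11.15.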

Additional observations from a re-analysis of the deposited data

Results flagged for a closer look

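In 68 genes, each with 2 groups of 5 arrays, 8 values lay far from the other 4 of their group by Dixon's criterion (5.88% of the 136 groups); chance flags about 1 group in 20. Among the 8 calcium and VDAC genes there was 1, Mcu in vehicle-labelled array 4, at 9.29 against 9.40 to 9.44 in the other vehicle-labelled arrays. Tamoxifen-labelled array 2 was high for Rhot1 (10.28 against 10.12 to 10.14) and Tspo (9.17 against 8.81 to 8.91). Slc25a4 read 14.06 in tamoxifen-labelled array 4 (others 14.01 to 14.02), and Pdp1 read 10.09 in tamoxifen-labelled array 5 (others 10.41 to 10.46). Vehicle-labelled arrays stood apart for Tomm20 (array 1, 10.05 against 10.16 to 10.20), Pprc1 (array 2, 7.78 against 7.43 to 7.53) and Tomm40 (array 3, 9.40 against 9.43 to 9.44).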

How the results depend on the processing

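The falls of Letm1, Vdac1, Vdac2 and Vdac3 kept direction and call in every alternative run: 4 genes were lower in all of them, and the highest adjusted p was 0.0394, for Vdac3 with an array left out. With each array left out in turn, changes ran from -0.44 to -0.38 for Letm1, -0.22 to -0.19 for Vdac1, -0.41 to -0.36 for Vdac2 and -0.21 to -0.17 for Vdac3, and Smdt1 from -0.050 to 0.021, turning above 0 without tamoxifen-labelled array 3. Centring each array on its median called Micu2 (0.12), so 1 gene was higher there. Vdac3 minus Vdac1 turned to -0.012 after quantile normalization and ranged from -0.0030 to 0.0345 with arrays left out, below 0 without vehicle-labelled array 4. Sarcoplasmic and sarcolemmal genes called were 3 with no filter, and 2 to 5 with arrays left out. Genes called lower over all genes were 1155, 1784 with array weights, and 937 to 1649 with arrays left out, where higher calls made up 49.6% without tamoxifen-labelled array 2, 51.6% with array weights and 62.2% in the main setting. Hk1 turned to -0.027 with the mean of its probe sets. The causes were not tested. Of 398 values of the main results under alternatives, 386 kept their direction and side of the threshold or stayed within 1.5 times the count. No label says that a replicate number marks a shared litter or day. Same-numbered deviations correlated at 0.038 to 0.20, not above 0.1 in every pair, so the numbers were not taken to pair the arrays; 7 of 10 arrays correlated best with their own number, a hint from the data and not the design. With the replicate number as a block, 2225 genes were higher and 1298 lower, against 1897 and 1155, and 4 of the 8 genes were lower, with Letm1 at -0.42 (adjusted p = 6.59e-05). RMA values give no detection call, so signal over background could not be judged.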
